A study of Mus musculus with 12 samples.

Results

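Regulatory T cells (Treg) from an experimental venous thrombus were compared with Treg from the vein wall around it. The samples for this comparison were chosen by tissue alone: 4 thrombus and 4 vein wall libraries of the 12 in the series, described across the 20432 genes that all libraries share. The cells were live, CD45+ CD4+, positive for EGFP under Foxp3 control and positive for the activation marker CD69. They came from DEREG mice, which carry the transgene Tg(Foxp3-DTR/EGFP)23.2Spar on C57BL/6: Foxp3 regulatory sequence drives a fusion of EGFP with the diphtheria toxin receptor. In every animal, also those that gave the 4 spleen libraries, the inferior vena cava had been ligated, which slows flow and models deep vein thrombosis, and tissue was taken at day 14. No toxin treatment is given in the labels, nor are the age or sex of the mice or whether a library pools several animals. The p-values below therefore rest on sample-to-sample spread, which may in part be technical. The EGFP reporter marks activity of the transgene rather than Foxp3 protein, and EGFP and CD69 were part of the gate in both tissues.

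Treg are CD4 T cells programmed by the transcription factor Foxp3 that restrain other immune cells, through the inhibitory receptor CTLA-4, consumption of interleukin 2 and cytokines such as interleukin 10. In non-lymphoid tissue they commonly take on an effector state, with receptors such as ST2 (encoded by Il1rl1) and mediators such as amphiregulin. A venous thrombus is remodelled by leukocytes, which lyse fibrin and matrix while the adjacent vein wall thickens and scars. The comparison of these neighbouring sites asks whether Treg inside the clot carry a programme other than those in the wall.

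The thrombus and vein wall libraries held 9719151 to 24042703 total exon reads, and 10081 to 10931 genes had at least 10 reads. A count of 0 allows up to 0.133 to 0.328 CPM (reads scaled to a common library total), depending on the library. All levels are CPM based on edgeR's trimmed-mean (TMM) library sizes. They are not divided by transcript length, so they are compared between samples of 1 gene and not between genes. The labels number the libraries of each tissue 1 to 4 as experiments. Vein wall 3 and vein wall 4 were near duplicates, with a mean chi-square of 2.56 per gene against 97.2 to 358 in the other 11 pairs of libraries from 1 of these tissues. They were summed and counted as 1 sample, vein wall 3-4, which leaves 4 thrombus and 3 vein wall samples. The deposited files came in 3 layouts with different gene models, here called sets, which the labels do not mention. Thrombus 1 was the single sample of these tissues in set 1, thrombus 2 and vein wall 1 were in set 2, and thrombus 3, thrombus 4, vein wall 2 and vein wall 3-4 were in set 3. Ddx3y, a Y-linked gene, had 0 CPM in thrombus 1 and 68.4 to 158 CPM in the other 6 samples, so thrombus 1 was the one of the 7 with no RNA of this gene. Spleen 1, the other library of set 1, also had 0 CPM of Ddx3y. No vein wall sample was in set 1, so within these tissues an effect of set 1 cannot be told apart from thrombus 1 itself. In the fit with the set of files as covariate, spleen 1 is the only other sample of that set.

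Thrombus and vein wall samples did not separate as groups. The distance of 2 samples was taken as the SD over all tested genes of their log2 CPM ratio. It was 1.16 to 1.70 (median 1.38) in the 12 pairs of 1 thrombus and 1 vein wall sample, 1.32 to 1.67 (median 1.47) in the 6 thrombus pairs, and 1.29 to 1.68 (median 1.43) in the 3 vein wall pairs. Pairs from different tissues were thus no further apart than pairs from the same tissue. The closest of all pairs was thrombus 3 with vein wall 2, from different tissues but 1 set of files, at 1.16. The 5 between-tissue pairs within a set lay at 1.16 to 1.39, beside 1.32 for thrombus 3 with thrombus 4 and 1.29 for vein wall 2 with vein wall 3-4. The first principal component held 33.3% of the variance and set thrombus 2 and vein wall 1, the pair from set 2, apart from the other 5 samples.

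**Figure D1:**
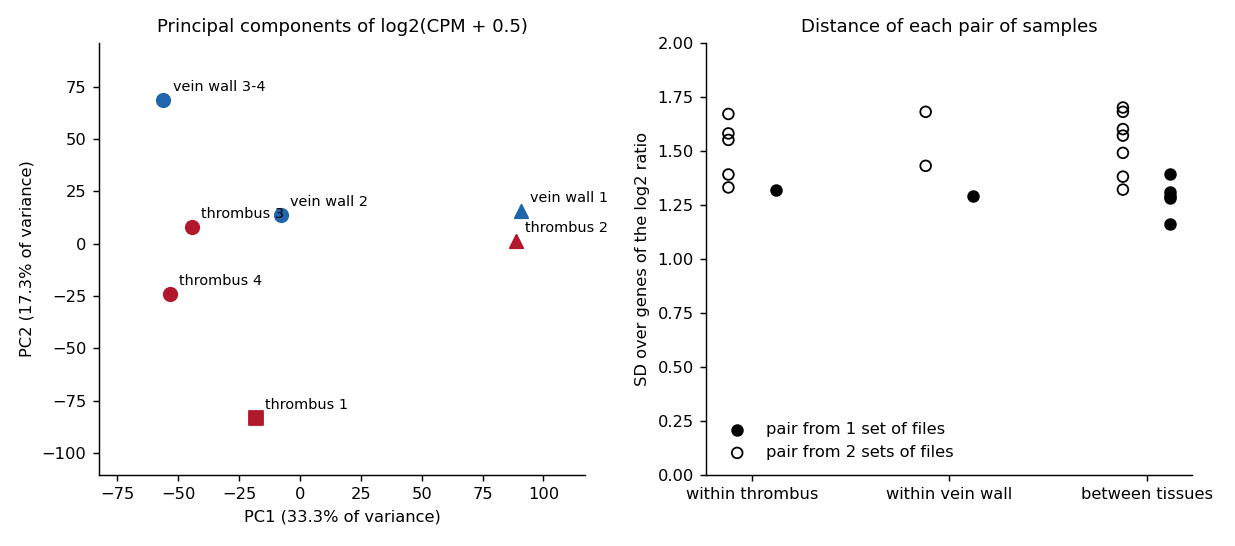
Left, the 7 samples on the first (33.3% of variance) and second (17.3%) principal components of log2(CPM + 0.5); red is thrombus, blue is vein wall, and the square, triangles and circles are sets 1, 2 and 3 of files. Right, each point is 1 pair of samples and the y axis is the SD over genes of its log2 ratio; the 12 between-tissue pairs cover 1.16 to 1.70, overlapping the 1.29 to 1.68 of pairs of 1 tissue, and filled points (pairs from 1 set of files) lie low.

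No gene passed the test between thrombus and vein wall. Of 11458 genes tested, 0% passed an adjusted p of 0.05 after Benjamini-Hochberg correction (edgeR's quasi-likelihood F test, with spleen samples sharing the estimate of spread), and the smallest adjusted p was 0.825. Without adjustment, 335 genes (2.92% of those tested) had p under 0.05, 252 with a higher fitted level in thrombus and 83 with a lower one. In 265 genes (2.31%) every thrombus sample was above every vein wall sample, and in 170 genes (1.48%) every one was below. The median log2 fold change, thrombus minus vein wall, was 0.04, with 5984 genes above 0 and 5474 below. The data bound the difference tightly in a minority of genes. For 1293 genes (11.3%) the 95% interval of the log2 fold change lay within 1 of 0. Among the 4016 genes with a mean of at least 50 CPM in either tissue, this held for 1257 (31.3%), with a median half-width of 0.84. Over all genes the median half-width was 1.35. A missed threshold in most genes is therefore no sign of equal levels.

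**Figure D2:**
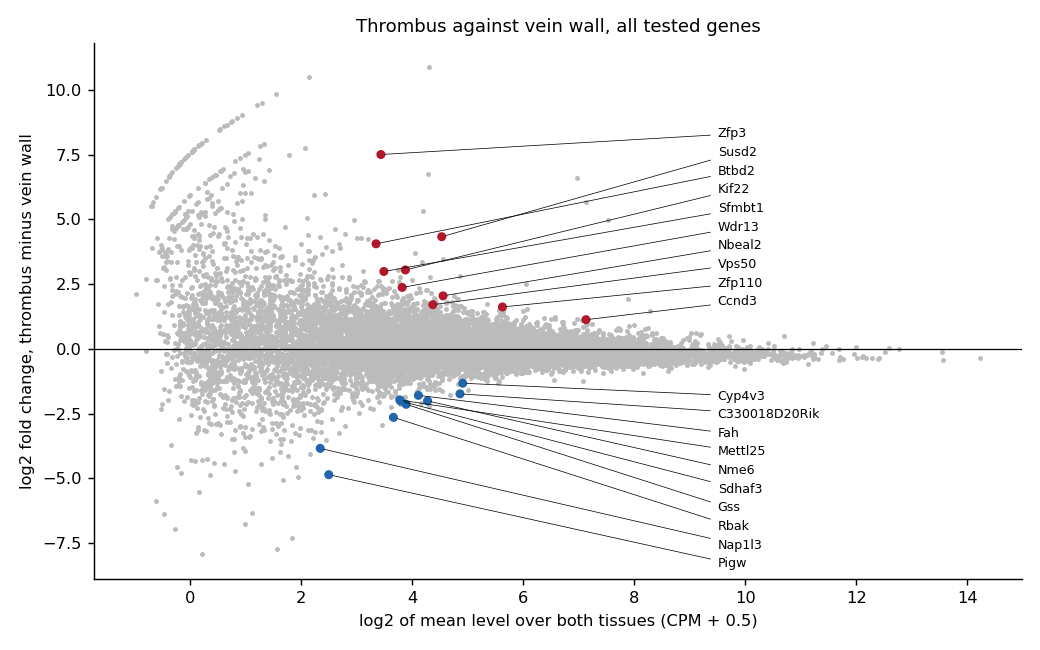
Each grey point is 1 of the 11458 tested genes, with the log2 of its mean level over both tissues (CPM + 0.5) on the x axis and the fitted log2 fold change of thrombus over vein wall on the y axis. The labelled points are the 10 genes in each direction with the smallest p among those without overlap, red where higher in thrombus and blue where lower; none was called, and the scatter narrows from low to high level.

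The 20 genes described next were picked by the smallest unadjusted p among genes of at least 5 CPM whose tissues did not overlap, so their separation is how they were chosen and not a result. Zfp3, a zinc finger gene (chromosome 11, 70764209 to 70772928, plus strand, GRCm38), had 8.47, 12.8, 6.44 and 54.2 CPM in thrombus 1 to 4. Vein wall 1, 2 and 3-4 had 0.257, 0.109 and 0 CPM, a total of 6 exon reads. Exon reads of Zfp3 were thus close to absent from vein wall and present in each thrombus library. The log2 fold change was 7.50 ± 1.49 (SE; unadjusted p = 8.52e-05, adjusted p = 0.825, edgeR), and the pooled ratio of levels was 229 (95% counting interval 105 to 626). On all gene reads, which add intron reads to exon reads, the log2 fold change was 3.38. Susd2, which encodes a sushi domain membrane protein (chromosome 10, 75636706 to 75644008, minus strand), had 31.6, 3.41, 52.5 and 84.7 CPM in thrombus against 0.901, 3.17 and 2.30 in vein wall. Thrombus 2 was barely above the highest vein wall sample. Its log2 fold change was 4.33 ± 0.91, again with an adjusted p of 0.825 (edgeR).

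Cyclin D3, a partner of the kinases that move cells through G1, is encoded by Ccnd3 (chromosome 17, 47505051 to 47599691, plus strand). It had the most reads of the 20 genes, 9972 in thrombus and 6349 in vein wall. Thrombus 1 to 4 had 236, 145, 191 and 193 CPM, and the vein wall samples had 70.2, 110 and 82.1. Thrombus was above vein wall within set 2 and within set 3, which the choice of genes without overlap fixes in advance. The log2 fold change was 1.13 ± 0.34 (95% interval 0.41 to 1.85), and it was 0.35 on all gene reads, below that interval. Sfmbt1, a chromatin protein with malignant brain tumour repeats, was even within each tissue, at 18.6, 15.8, 17.7 and 24.0 CPM in thrombus against 2.19, 2.24 and 2.73 in vein wall, a log2 fold change of 2.99 ± 0.73, or 1.31 on all gene reads. Nbeal2, a BEACH domain gene best known for platelet alpha granules, had 20.8 to 50.8 CPM in thrombus against 7.34 to 11.9 in vein wall. Kif22, a kinesin that binds mitotic chromosomes, had 7.68 to 49.2 CPM against 0.965 to 4.66. Vps50, a subunit of an endosomal recycling complex, was tight in vein wall at 8.48 to 10.2 CPM, with 23.8 to 43.1 in thrombus. Btbd2, Wdr13 and Zfp110 completed the 10, with log2 fold changes of 4.06 ± 1.04, 2.37 ± 0.67 and 1.62 ± 0.45. On all gene reads all 10 were closer to 0 and kept their sign, and in 6 the fold was over 1.5 times smaller: Zfp3, Sfmbt1, Ccnd3, Vps50 (0.65), Kif22 (2.42) and Btbd2 (3.36). All 10 had an adjusted p of 0.825 or of 1 after rounding.

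The spleen samples add another point for these genes. In all 10 the spleen mean was above every vein wall sample, and in 9 it lay inside the range of the thrombus samples. For Zfp3 the spleen mean was 15.2 CPM, the thrombus mean 20.5 ± 22.6 (SD, n = 4) and the vein wall mean 0.122 ± 0.129 (SD, n = 3). For Sfmbt1 these means were 16.8, 19.0 ± 3.54 and 2.39 ± 0.301 CPM. Ccnd3 had 172 in spleen against 191 ± 37.0 and 87.5 ± 20.7. Kif22 was the exception, with a spleen mean of 5.17 CPM, below the lowest thrombus sample. Genes picked for low values in 3 samples will tend to have higher values elsewhere, so this position is given as a description only.

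In the other direction, Nme6, a nucleoside diphosphate kinase family gene (chromosome 9, 109832749 to 109843116, plus strand), had the smallest p. It had 8.47, 9.61, 6.98 and 4.90 CPM in thrombus against 33.1, 30.5 and 26.8 in vein wall. Both tissues were even, and the log2 fold change was -2.01 ± 0.59 (unadjusted p = 0.00305, adjusted p = 1 after rounding, edgeR). Pigw, which acylates inositol in the synthesis of membrane anchors (chromosome 11, 84876315 to 84880285, minus strand), had no read in thrombus 2, 3 and 4 and 1.31 CPM in thrombus 1, against 6.69, 13.8 and 9.32 CPM in vein wall. Gss, the glutathione synthetase, had 2.30, 9.56, 4.94 and 4.33 CPM in thrombus against 38.0, 21.7 and 10.3 in vein wall. The highest thrombus and lowest vein wall values of Gss nearly met. Fah, the last enzyme of tyrosine breakdown, had 2.45 to 10.6 CPM in thrombus against 23.7 to 28.5 in vein wall. Sdhaf3, an assembly factor of succinate dehydrogenase, had 3.65 to 7.62 against 13.4 to 27.2 CPM. Cyp4v3, a cytochrome P450 of fatty acid hydroxylation, had 10.8 to 23.6 against 35.6 to 51.5 CPM. Mettl25, Rbak, Nap1l3 and C330018D20Rik completed these 10, with log2 fold changes of -1.97 ± 0.70, -2.64 ± 1.02, -3.84 ± 1.55 and -1.74 ± 0.57. On all gene reads all 10 kept their sign, and in 1, Sdhaf3, the fold was over 1.5 times smaller (-1.16 against -2.01). The spleen mean lay within the vein wall range in 3 of the 10, below every vein wall sample in the other 7, and within the thrombus range in 0.

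**Figure D3:**
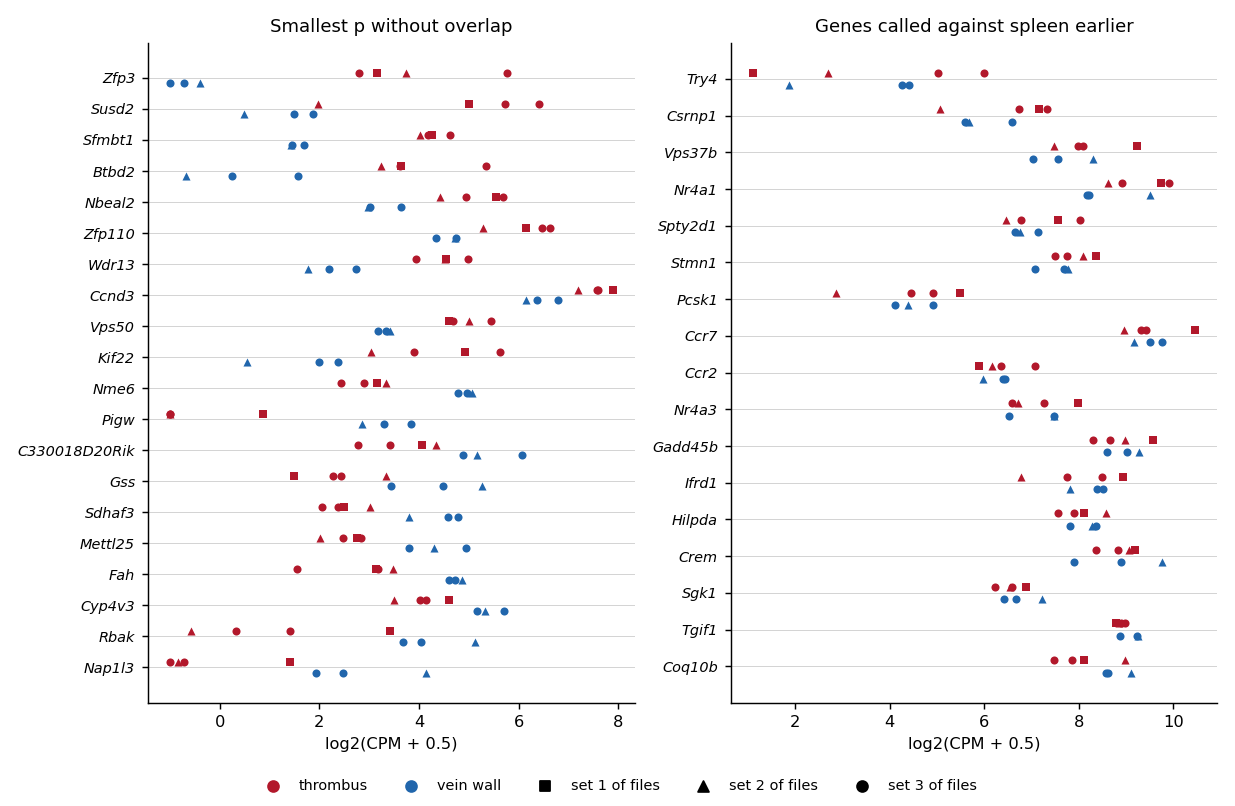
Each point is 1 sample, on an x axis of log2(CPM + 0.5); red is thrombus, blue is vein wall, and the marker gives the set of files. Left, the 20 genes with the smallest p without overlap, which were chosen for their separation; right, 17 genes called higher in thrombus than in spleen in an earlier analysis, in which the thrombus and vein wall points overlap for every gene.

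Other analyses called a few genes, all higher in thrombus. DESeq2's Wald test called 10 of 11297 genes with an adjusted p (0.0885%): Btbd2, Nbeal2, Sfmbt1, Susd2, Wdr13 and Zfp3, described above, and Clec4b1, Hmmr, Klra1 and Ube2c. Hmmr is a hyaluronan receptor also tied to the mitotic spindle. It had 9.52, 4.95, 0 and 4.90 CPM in thrombus against no exon read in any vein wall sample. Pooled over libraries, the ratio was at least 132 with the vein wall group set at a floor of 3 exon reads. That bound covers counting error only. With the spread between samples included, the fitted interval of the log2 fold change of Hmmr was 3.45 to 16.2. With intron reads added the difference was gone, at a log2 fold change of 0.09 for Hmmr on all gene reads. Clec4b1, a C-type lectin of myeloid cells, had 1.90, 5.40, 0 and 0.188 CPM in thrombus against 0 in vein wall. Klra1, a Ly49 receptor gene of natural killer cells, had 0.525, 0, 1.07 and 0 CPM against 0, so 2 thrombus libraries had no read either. The tissues overlapped in these 3 genes. Within set 3 alone, edgeR called 1 of 12222 genes (0.00818%). This was Lars2, the mitochondrial leucyl-tRNA synthetase, with 860 and 707 CPM in thrombus 3 and 4 against 209 and 214 in vein wall 2 and 3-4 (log2 fold change 1.89 ± 0.27, adjusted p = 0.0112, edgeR). In set 2, thrombus 2 had 41.2 CPM of Lars2, below the 73.1 of vein wall 1, and thrombus 1, with no vein wall sample in its set, had 218. Over all 7 samples Lars2 had a log2 fold change of 1.47 ± 1.18 (unadjusted p = 0.249).

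The genes of the sort were present in every sample and overlapped between the tissues. Foxp3 had 565, 280, 537 and 717 CPM in thrombus against 360, 493 and 377 in vein wall. This gave a log2 fold change of 0.36 ± 0.34 (95% interval -0.36 to 1.07), which turned to -0.11 on unique exon reads. Cd69 had 411, 832, 524 and 613 CPM in thrombus against 892, 649 and 753 in vein wall, a log2 fold change of -0.36 ± 0.31. Ptprc, which encodes CD45, had a log2 fold change of 0.01 ± 0.33, and Il2ra, the high-affinity chain of the interleukin 2 receptor, one of -0.23 ± 0.34. Cd4 had 178, 108, 89.4 and 352 CPM in thrombus against 75.8, 98.7 and 113 in vein wall. Thrombus 4 held the highest Cd4, and thrombus 2 and 3 lay inside the vein wall range (log2 fold change 0.92 ± 0.42, unadjusted p = 0.0423, adjusted p = 1 after rounding, edgeR). Without thrombus 4 it was 0.39. In a list of 20 Treg identity genes, all were tested, 0 were called, 11 were above 0 and 9 below, and the median was 0.12 beside 0.04 over all genes. The interval lay within 1 of 0 in 7 of them. Il2rb, the shared interleukin 2 and 15 receptor chain, had 437, 189, 344 and 539 CPM in thrombus against 211, 260 and 306 in vein wall, and Izumo1r, the folate receptor 4 gene, had 1050 to 1990 against 1691 to 2186.

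An earlier analysis of these data had called 17 genes higher in thrombus than in spleen, so their levels in thrombus were involved in choosing them. Against vein wall, 10 of the 17 were above 0 and 7 below, with a median log2 fold change of 0.15. None was called, beside 0% of all tested genes. None was without overlap, beside 2.31% of all tested genes with thrombus above and 1.48% with thrombus below. The smallest unadjusted p was 0.125 (edgeR). The fold changes ran from -0.57 for Coq10b, a coenzyme Q binding protein gene, to 0.86 for the trypsin gene Try4. Nr4a1, an orphan nuclear receptor induced by antigen receptor signals, had 852, 393, 479 and 965 CPM in thrombus against 727, 298 and 286 in vein wall. Its relative Nr4a3 had 251, 104, 95.6 and 153 CPM against 178, 92.0 and 178. For both, vein wall 1 was above thrombus 2 and 3. The log2 fold changes were 0.62 ± 0.41 and 0.01 ± 0.42. Crem, a cyclic AMP response modulator, had -0.15 ± 0.38, and Vps37b, a sorting complex subunit, had 0.63 ± 0.41. Ccr7, the receptor that guides T cells to lymph nodes, had 1415, 495, 685 and 637 CPM in thrombus against 578, 729 and 869 in vein wall. Thrombus 1 was the highest and thrombus 2 the lowest of the 7. Ccr2, the receptor for monocyte chemoattractants, had 59.1 to 133 CPM in thrombus against 62.6 to 86.2 in vein wall. In 7 of the 17 the interval lay within 1 of 0, among them Tgif1, a repressor in TGF-beta signalling, at -0.26 ± 0.28 (95% interval -0.85 to 0.34), and Hilpda, a lipid droplet gene, at -0.09 ± 0.33 (-0.77 to 0.60). Without thrombus 1 the median of the 17 was -0.21, and with set as a covariate it was -0.09. In set 2 it was -0.41 and in set 3 it was 0.18, so the sign of the median depended on the samples and the fit.

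Of 29 genes of the tissue and effector Treg state, 20 were above 0 and 9 below, with a median of 0.18 and 0 called. Il1rl1, the receptor for the alarmin interleukin 33, had 93.6, 32.2, 85.2 and 159 CPM in thrombus against 33.1, 43.9 and 24.9 in vein wall. Thrombus 1, 3 and 4 were above all vein wall samples and thrombus 2 lay among them. The log2 fold change was 1.44 ± 0.75 (unadjusted p = 0.0719), 1.83 ± 0.57 within set 3, and -0.04 in set 2. Itgae, the CD103 integrin chain that binds epithelial cadherin, had 58.0, 21.1, 63.0 and 145 CPM against 37.1, 33.1 and 63.9. In 13 tested Th2-associated genes, 11 were above 0 and the median was 0.49. One, Stat6, the signal transducer of interleukin 4, had an unadjusted p under 0.05, with 116, 73.8, 144 and 178 CPM in thrombus against 75.3, 60.4 and 87.4 in vein wall (log2 fold change 0.78 ± 0.37). Thrombus 2 again lay among the vein wall samples. Hpgds, the prostaglandin D synthase, had 6.70 to 21.0 CPM against 1.95 to 7.79.

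Suppressive mediators had 16 of 23 tested genes above 0 and a median of 0.20. Lag3 is an inhibitory receptor that binds class II molecules. It was the 1 gene of the 23 without overlap, beside 2.31% of all tested genes with thrombus above. Its levels were 11.1, 2.22, 4.30 and 14.0 CPM in thrombus against 0.708, 1.37 and 1.54 in vein wall. At this low level the log2 fold change was 2.70 ± 1.23 (unadjusted p = 0.0408). Pdcd1, which encodes PD-1, had 403, 182, 270 and 275 CPM against 179, 246 and 162, a difference of 0.53 ± 0.34 with overlap. Lgals3, the galectin 3 gene that macrophages also express, was highest in thrombus 2 at 96.8 CPM, the library with the highest macrophage markers. In the list of 24 costimulatory and coinhibitory receptors, 12 intervals lay within 1 of 0, 12 genes were above 0 and 12 below, and the median was 0.00. Cd160, another inhibitory receptor, had 45.5 to 124 CPM in thrombus against 26.7 to 78.6 in vein wall. This was among the lists with the tightest bounds on a difference.

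Chemokine receptors direct where Treg settle. Ccr9, the receptor for CCL25 that marks gut homing, was without overlap, at 1.51, 3.58, 8.70 and 15.6 CPM in thrombus against 0.708, 1.48 and 0.0253 in vein wall. The lowest thrombus and highest vein wall values differed by little. Cxcr5, the follicular homing receptor, overlapped at 62.2 to 126 against 42.2 to 85.6 CPM. Of the 17 receptors tested, 13 were above 0, 0 were called, and the median was 0.16.

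Chemokine ligands had the highest median of the pathway lists, 1.16 over 15 tested genes with 11 above 0, and it was -0.04 with set as a covariate. Thrombus 2 held the high values of several. Ccl6, a chemokine of myeloid cells, had 0.197, 104, 2.47 and 12.4 CPM in thrombus against 2.06, 4.38 and 0.506 in vein wall. The summed level of 15 macrophage and monocyte markers was 178, 2270, 99.9 and 114 CPM in thrombus 1 to 4 and 496, 157 and 30.2 in vein wall 1, 2 and 3-4. The part of these markers in the chemokine values was not tested. Ccl1, the ligand of CCR8, had 13.9, 3.47, 1.61 and 8.38 CPM in thrombus against 0.901, 77.5 and 16.8 in vein wall, so vein wall 2 held most of it (log2 fold change -2.21 ± 1.03, unadjusted p = 0.0455).

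Integrins, the adhesion receptors that bind matrix and other cells, had 14 of 16 tested chains above 0, all but Itga5 and Itgb8, and a median of 0.65. The list's median was 0.98 for thrombus 1 against the mean of the vein wall samples. It was 0 in set 2, 0.28 in set 3 and 0.31 with set as a covariate. Itgb7, which pairs with Itga4 or Itgae, was abundant, with 523, 205, 373 and 445 CPM in thrombus against 235, 195 and 231 in vein wall. Thrombus 1, 3 and 4 exceeded every vein wall sample and thrombus 2 did not. This gave a log2 fold change of 0.81 ± 0.34 (95% interval 0.11 to 1.52, unadjusted p = 0.026). Itga2b, a platelet integrin chain, had 0 to 1.05 CPM in thrombus against 0 to 0.0253 in vein wall, and Itgb5 had 0 to 2.56 against 0 to 0.0253. Both were at or near the floor of detection.

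Genes of T cell receptor signalling and the immediate early response had 22 of 32 above 0 and a median of 0.23. Jun, a subunit of the AP-1 factor, was without overlap: 93.9, 40.8, 54.3 and 33.7 CPM in thrombus against 20.9, 25.6 and 15.9 in vein wall. The log2 fold change was 1.42 ± 0.68 (unadjusted p = 0.0492, adjusted p = 1 after rounding, edgeR). Zfp36, which destabilizes cytokine mRNA, had 159 to 422 CPM against 82.5 to 246. The median of the list was 0.02 with set as a covariate, and 0.85 for thrombus 1 against the mean of the vein wall samples. Of 26 NF-kB and TNF pathway genes, 19 were above 0 with a median of 0.19; Birc3, an inhibitor of apoptosis, had 206, 109, 279 and 222 CPM in thrombus against 149, 142 and 133 in vein wall. Heat shock genes, which rise when tissue is dissociated, were divided 11 above and 10 below with a median of 0.06, and 10 of the 21 intervals lay within 1 of 0. The integrated stress response had 14 of 21 above 0 (median 0.13). In that list Trib3, a pseudokinase, had 1.51 to 9.06 CPM in thrombus against 0 to 1.17 in vein wall.

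Lists of other T cell states had medians of 0.06 to 0.31. Among 16 Th1 genes 10 were above 0 (median 0.31), and the median was -0.21 with set as a covariate; Nkg7, a cytotoxic granule gene, had 212 to 645 CPM in thrombus against 455 to 645 in vein wall. Th17-associated genes had 9 of 13 above 0 (median 0.21). Il21r, the interleukin 21 receptor, was without overlap in that list at 204, 161, 178 and 253 CPM in thrombus against 120, 116 and 142 in vein wall, a log2 fold change of 0.66 ± 0.35 (unadjusted p = 0.0737). Follicular genes had 8 of 15 above 0 (median 0.06). Tox2, a nuclear factor of that programme, had 21.3, 10.6, 52.6 and 18.0 CPM in thrombus against 5.21, 9.63 and 7.47 in vein wall, without overlap but with thrombus 2 next to vein wall 2 (log2 fold change 1.78 ± 0.70, unadjusted p = 0.0198). Genes of the naive state and lymphoid recirculation had 11 of 16 above 0 (median 0.22), and 10 of 17 tissue residence genes were above 0 (median 0.19). Rgs1, a G protein regulator of resident T cells, was without overlap in the opposite direction at 634, 603, 378 and 529 CPM in thrombus against 763, 687 and 657 in vein wall (log2 fold change -0.39 ± 0.32, 95% interval -1.05 to 0.27).

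The interferon response list had a median below 0. Of 32 genes, 21 were below 0 and 11 above, with a median of -0.17. An unadjusted p under 0.05 (edgeR) was reached by 2 genes higher in thrombus and 1 lower. Rtp4, an interferon-induced chaperone, had 59.6, 88.0, 58.3 and 49.4 CPM in thrombus against 86.7, 97.4 and 168 in vein wall, so thrombus 2 was just above the lowest vein wall sample (log2 fold change -0.88 ± 0.37, unadjusted p = 0.0302). Stat2, a transducer of type I interferon signals, went the other way at 33.8, 30.4, 17.9 and 58.8 CPM against 9.40, 19.0 and 8.41 (1.52 ± 0.58, unadjusted p = 0.0169). Thrombus 3 fell just below vein wall 2. Without vein wall 1 the median of the list was 0.03.

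Cell cycle genes leaned towards thrombus, most of all in thrombus 1. Of 29 proliferation genes, 25 were above 0 and 4 below, the median log2 fold change was 0.68 beside 0.04 over all genes, and 0 were called. In 4 of the 29 the unadjusted p was under 0.05, all higher in thrombus, beside 2.92% of all tested genes in either direction. Aurka, a kinase of the mitotic spindle, had 31.4, 12.5, 6.44 and 19.0 CPM in thrombus against 2.38, 4.43 and 2.76 in vein wall, without overlap. Bub1, of the spindle checkpoint, had 9.52, 4.27, 26.0 and 4.80 CPM against 0.837, 1.15 and 0.0253, also without overlap. Ube2c, which helps degrade cyclins at mitotic exit, had 35.8, 0.853, 5.69 and 13.6 CPM against 0.129, 0.164 and 0.988, so thrombus 2 fell below vein wall 3-4. The log2 fold changes were 2.44 ± 0.95 (unadjusted p = 0.0186), 4.06 ± 1.76 (0.0323) and 4.98 ± 1.51 (0.00396). The list's median was 1.54 for thrombus 1 against the mean of the vein wall samples, 0.32 in set 2 and 0.28 in set 3. Without thrombus 1 it was 0.07. The other gene with p under 0.05 was Ccnb2, a mitotic cyclin, at 78.2, 65.5, 54.3 and 2.83 CPM in thrombus against 0.322, 7 and 13.7 in vein wall (2.83 ± 1.29, unadjusted p = 0.0489). Thrombus 4 lay among the vein wall samples. The 4 members below 0 were Cdk1, Cks1b, Hmgb2 and Pcna, at -0.60, -0.36, -0.19 and -0.10. Stmn1, a microtubule regulator in this list, had 329, 271, 216 and 180 CPM in thrombus against 217, 205 and 135 in vein wall.

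Nuclear genes of oxidative phosphorylation, the respiratory chain and ATP synthase of mitochondria, had the lowest median of the pathway lists. Of 32 genes, 31 were below 0 and 1 above, with a median log2 fold change of -0.40. The 1 above 0 was Atp5a1, an ATP synthase subunit, at 0.11 ± 0.31. No member was called, had an unadjusted p under 0.05 or was without overlap. Of all tested genes, 0% were called and 2.92% had such a p (edgeR). Without overlap were 2.31% with thrombus above and 1.48% with thrombus below. The members' median level was 237, 642, 521 and 398 CPM in thrombus 1 to 4 and 485, 729 and 616 in vein wall 1, 2 and 3-4. Thrombus 1 was the lowest of the 7 samples for 25 of the 32 genes, while it was the lowest for 13.7% of all tested genes. The list's median was -1.29 for thrombus 1 against the mean of the vein wall samples, -0.46 in set 3 and 0.32 in set 2, so the sets of files differed in sign. Without thrombus 1 it was -0.21. In spleen the members' median level was 304 CPM in spleen 1, also of set 1, beside 456 and 501 in spleen 2 and 3-4. Uqcrb, a subunit of complex III, had 231, 850, 489 and 381 CPM in thrombus against 638, 922 and 808 in vein wall (log2 fold change -0.69 ± 0.37, unadjusted p = 0.0782). Ndufa6, of complex I, had 121, 253, 187 and 153 CPM against 239, 311 and 262, and Cox5a, of complex IV, had 246, 135, 305 and 252 against 188, 478 and 441. Thrombus 2 was the highest thrombus sample for Uqcrb and Ndufa6 and the lowest for Cox5a.

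Cytosolic ribosomal proteins had the same lean, with 40 of 42 genes below 0 and a median of -0.22, and 31 of the 42 intervals lay within 1 of 0. Thrombus 1 was the lowest sample for 29 of them. The list's median was -0.74 for thrombus 1, -0.22 in set 3 and 0.29 in set 2. Rpl15 had 432, 1050, 862 and 797 CPM in thrombus against 881, 1049 and 1118 in vein wall. Rps25 was 1 of the 2 above 0, at 871, 1174, 1216 and 1216 CPM against 654, 926 and 1046. The other, Rpl27, followed the set of files, with 748 and 607 CPM in thrombus 2 and vein wall 1 and 69.1 to 210 in the other 5 samples. Gapdh, the glycolytic enzyme often used as a reference, was also far lower in thrombus 1, at 131 CPM beside 601 to 933 in the other thrombus samples and 638 to 877 in vein wall. Spleen 1, of the same set, was low as well, at 112 CPM of Gapdh beside 574 and 636 in the other spleen samples. Glycolysis as a list was divided 9 above and 8 below (median 0.01), and hypoxia genes 10 above and 13 below (median -0.05). Vegfa, the angiogenic factor of the hypoxia list, had 9.06, 2.45, 3.54 and 0.188 CPM in thrombus against 0.0644, 0.273 and 0.481 in vein wall (log2 fold change 3.76 ± 2.05, unadjusted p = 0.0826). Thrombus 4 fell among the vein wall samples.

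A thrombus holds trapped erythrocytes, whose heme macrophages break down. Of 20 tested heme and iron genes 14 were above 0, with a median of 0.48. The list's median was 1.02 for thrombus 1 against the mean of the vein wall samples. It was 0.23 in set 2, -0.11 in set 3 and 0.26 with set as a covariate. Hmox1, the heme oxygenase, had 52.3, 21.7, 9.66 and 1.41 CPM in thrombus against 6.82, 3.94 and 8.33 in vein wall, with thrombus 1 highest and thrombus 4 lowest of the 7 samples. The log2 fold change was 1.74 ± 0.83 (unadjusted p = 0.0514), or 0.83 when set was a covariate. Hp, which encodes the haemoglobin scavenger haptoglobin, had 0.919, 3.87, 2.36 and 0.471 CPM in thrombus against no read in vein wall. Pooled over libraries, the reads gave a ratio of at least 50.5 against 3 reads over the vein wall group. That bound covers counting error only, and thrombus 2 gave 68 of the 109 thrombus reads. With the spread between samples included, the fitted interval of the log2 fold change of Hp was 2.43 to 14.5. The summed level of 11 erythroid markers was 9.65, 2090, 15 and 1600 CPM in thrombus against 25.2, 5.47 and 51.7 in vein wall, and it reached 1850 CPM in spleen. Thrombus 2 and 4 thus held haemoglobin RNA and thrombus 1 and 3 did not exceed the vein wall. Hba-a1, Hba-a2 and the other globin genes share reads through their near-identical copies. Hmox1 was highest in thrombus 1, with 9.65 CPM of erythroid markers. Of 25 lipid uptake and synthesis genes 14 were above 0, with a median of 0.43, which was -0.12 without vein wall 1.

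Lists of the clot and the wall themselves were sparsely expressed. Of 32 extracellular matrix genes 15 passed the filter on low counts, so members that were measured high in 1 group only could enter; 10 were above 0 with a median of 0.61. Thbs1, the matrix glycoprotein thrombospondin 1 of platelets and macrophages, had 4.40, 7.22, 0.107 and 1.13 CPM in thrombus against 0, 0.109 and 0.0253 in vein wall. Dcn, the fibroblast proteoglycan decorin, had 1.97, 9.21, 3.44 and 1.98 CPM against 7.72, 50.5 and 0.278, with most in vein wall 2. Of 27 coagulation and fibrinolysis genes 14 were tested, 9 below 0 and 5 (Anxa2, F2r, F2rl1, Plau and Procr) above (median -0.34). Tfpi, the tissue factor pathway inhibitor, was without overlap in that list at 7.29, 9.10, 12.7 and 7.63 CPM in thrombus against 17.1, 14.0 and 15.9 in vein wall (log2 fold change -0.77 ± 0.63, unadjusted p = 0.234). Plgrkt, a plasminogen receptor, overlapped at 169 to 387 against 354 to 428 CPM. Matrix proteases and their inhibitors were divided 11 above and 9 below (median 0.05); Adamts10 had 50.3, 19.3, 14.1 and 24.9 CPM in thrombus against 9.07, 8.80 and 13.9 in vein wall. TGF-beta signalling had 11 above and 11 below (median 0.00). Id1, an inhibitor of basic helix-loop-helix factors in that list, had 0, 0.683, 0 and 0 CPM in thrombus against 3.15, 3.94 and 1.29 in vein wall.

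**Figure D4:**
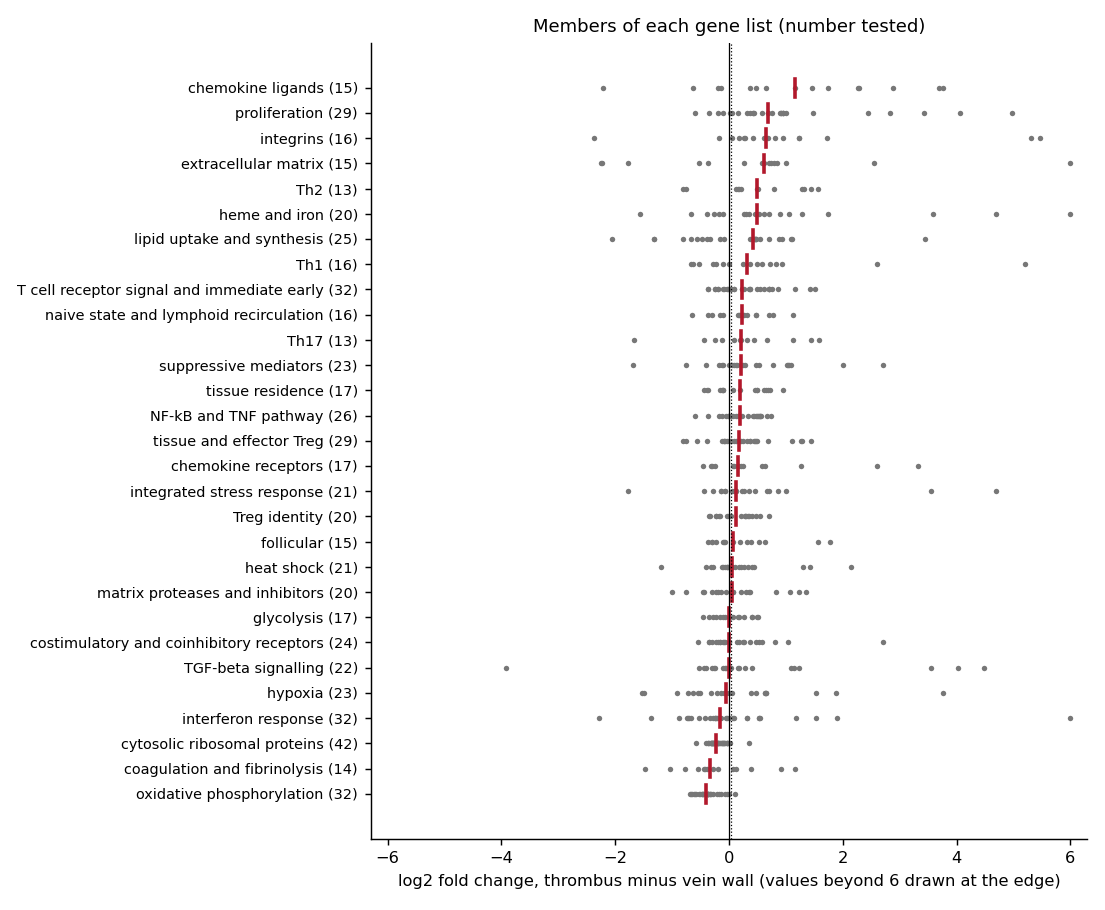
Each grey point is 1 tested member of a gene list, placed by its log2 fold change of thrombus over vein wall; the red bar is the list's median, the number tested stands in brackets, and the dotted line is the median of all 11458 genes, 0.04. Medians run from 1.16 for chemokine ligands to -0.40 for oxidative phosphorylation, and no member of any list was called.

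RNA of marker genes of other cell types was present in both tissues, and its level differed widely between samples of 1 tissue. In bulk samples, more cells of a type and more RNA per cell cannot be told apart. Dendritic cell markers summed to 3290, 12200, 1900 and 2140 CPM in thrombus against 13100, 2640 and 2750 in vein wall. The high samples were thrombus 2 and vein wall 1, both of set 2. Cd74, the invariant chain of class II molecules, made up most of the sum there, at 7374 and 8376 CPM. The class II genes H2-Ab1 (2242 and 2387 CPM) and H2-Aa (1429 and 1365 CPM) followed. Which cells this class II RNA came from was not tested. B and plasma cell markers were 373 to 1200 CPM in thrombus against 594 to 1630 in vein wall, with Cd79a at 527 and 737 CPM in the same 2 samples. CD8 T and NK cell markers were 280 to 1190 CPM against 542 to 811. Neutrophil markers were 2.92 to 132 CPM against 7.50 to 9.52; Camp, Elane and Mmp8 were at 0 in both tissues, and Il1b, which macrophages also make, gave 116 CPM of the 132 in thrombus 2. Platelet and megakaryocyte markers were 13.2 to 55.7 CPM in thrombus against 5.41 to 14.3 in vein wall. Of the 4 tested, 3 were above 0 and 1, Ppbp, was below at a log2 fold change of -0.85. For Ppbp this was -2.67 within set 3 and 1.67 without vein wall 3-4. Pf4, platelet factor 4, was without overlap at 2.95, 47.6, 5.48 and 1.23 CPM in thrombus, thrombus 4 just above the highest of 1.22, 0 and 0.988 in vein wall; Tubb1 was at 0 in all 7.

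Cells of the vessel wall left little RNA in either sort. Endothelial markers summed to 58.4 to 68.6 CPM in thrombus against 46.5 to 51.6 in vein wall, nearly all from Pecam1, which T cells also express, at 65.7, 59.6, 63.1 and 55.6 CPM against 41.8, 44.1 and 48.0; Emcn was at 0. Lymphatic endothelial markers were at most 1.51 CPM, with Pdpn at 0. Smooth muscle markers were 37.6 to 94.3 CPM against 28.3 to 82.9, mostly Actg2, and Acta2, the smooth muscle actin, had 4.79, 4.61, 1.72 and 1.23 CPM in thrombus against 0.193, 0.984 and 0.228 in vein wall. Fibroblast markers were 134 to 215 CPM against 144 to 252, led by Thy1, which mouse T cells express. Markers of pancreatic acinar cells were 24.7 to 637 CPM in thrombus against 94.3 to 319 in vein wall, with thrombus 4 highest; their trypsin genes share reads. Mast cell, basophil and ILC2 markers were 12.3 to 37.9 CPM against 16.3 to 39.6, with Fcer1a and Mcpt8 at 0. Adipocyte markers were 0.0656 to 22.0 CPM against 1.31 to 2.77, and mesothelial markers 0.859 to 3.75 against 0.177 to 14.2. The part of these RNAs in the differences described above was not tested.

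**Figure D5:**
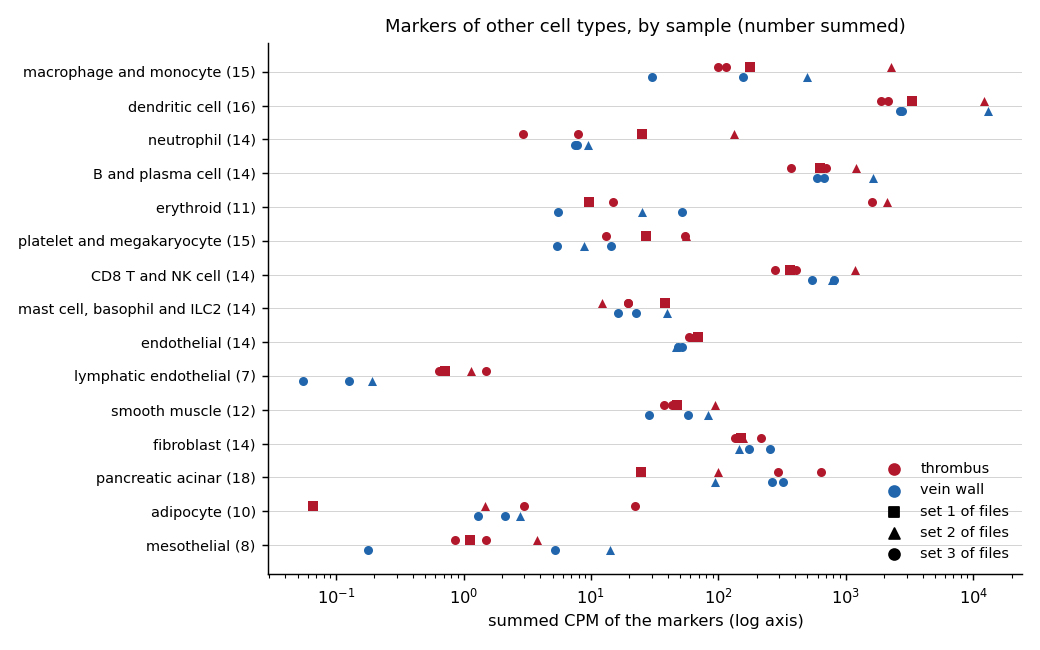
Summed CPM of the markers of each other cell type (x axis, log scale), 1 point per sample; red is thrombus, blue is vein wall, the marker shape is the set of files, and the number of markers summed stands in brackets. The dendritic cell sum is highest in thrombus 2 and vein wall 1 (12200 and 13100 CPM), and the erythroid sum is high in thrombus 2 and 4 (2090 and 1600 CPM).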

How the data were processed

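The deposited files hold counts per gene and library made by the authors (total exon, unique exon, intron and all gene reads), per the file headers; their RPKM columns were not used. Per the labels' protocols, cDNA came from a SMART-Seq kit and Nextera XT libraries, with no molecular identifiers and no strand. Counting intervals of pooled ratios and floors therefore cover counting error only, and antisense partners cannot be told apart. The intervals of fitted fold changes come from the edgeR fit and include the spread between samples. The genome build was GRCm38, per the submitters' processing notes; the sources used here do not name aligner or counter. Reads with several matches, 14.7% to 21.6% of exon reads, are in the total, so near-identical genes share them. Genes were joined over the 3 file layouts by name, with the same Ensembl ID, chromosome and strand required; 92.0% to 94.3% of exon reads stayed, and exon models matched within 10% in length for 6489 of 20432 genes.

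Tests on total exon reads used edgeR 4.0.16 (R 4.3.3; TMM, default low-count filter, robust quasi-likelihood F test, tissue as factor, all 10 samples sharing the spread, Benjamini-Hochberg adjustment) and checked on simulated data. DESeq2 1.42.0 and limma 3.58.1 (voom) were alternatives. The main fit uses the summed pairs vein wall 3-4 and spleen 3-4. Named genes were the 10 in each direction with the smallest p among those without overlap and of at least 5 CPM, the 3 with the smallest p in each list, sort genes, genes called in set 3 or under an alternative, the 17 genes called against spleen, and up to 3 leading markers of each other cell type. Atp5a1, Ccnb2, Ddx3y, Rpl27, the genes outside the join and the members named only for lying on the rarer side of 0 were chosen after their values were seen. Members and lists were chosen with earlier results of these data known. A gene that the naming rule picked is not reported here.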

Additional observations from a re-analysis of the deposited data

Results flagged for a closer look

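In 9 of the 159 named genes, 1 thrombus sample lay far from the other 3. There the gap over the range, both taken on log2(CPM + 0.5), reached 0.829 (Dixon). Chance gives about 1 in 20 groups, and 9 of 159 is near that share. Where the other 3 samples are at 0 CPM, any read gives a ratio of 1. Thrombus 2 stood apart in 4. Its Actg2 level was 82.4 CPM beside 35.8 to 38.9 (ratio 0.902), Hpgds was 21.0 beside 6.70 to 7.35 (0.921), Eif2ak1, the heme-regulated kinase of the integrated stress response, was low at 46.7 beside 80.5 to 86.0 (0.892), and Id1 was 0.683 beside 0 in the others (1). Vein wall 1, of the same set of files, had 82.6 CPM of Actg2 and 46.8 of Eif2ak1. Thrombus 1 stood apart in Nap1l3, at 2.17 CPM beside 0 to 0.107 (0.884), Pigw, at 1.31 beside 0 (1), and Rps25, low at 871 beside 1174 to 1216 (0.894). Thrombus 4 stood apart in Adipoq, at 1.98 CPM beside 0 to 0.107 (0.878), and Fah, low at 2.45 beside 8.34 to 10.6 (0.829).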

How the results depend on the processing

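Against 0 genes called, DESeq2 called 10, no filter on low counts 2 (Susd2 and Zfp3), set 3 alone 1 (Lars2), and leaving out 1 sample 0 to 1, the 1 being Susd2 without thrombus 2 (adjusted p = 0.0474, edgeR). Added after seeing the data, thrombus and vein wall samples alone with the set of files as covariate called 1 gene, Ifitm1 (adjusted p = 0.00394, edgeR), which had 148 CPM in thrombus 2, 0.430 to 4.07 in the other thrombus samples and 1 read over the vein wall; set 3 with all its gene models called 1 (Lars2). The other scalings, filters, count columns, voom, 12 separate libraries and the set of files as covariate called 0. A replicate block was fitted on the 12 libraries as separate samples, near duplicates included. It called 0 genes (smallest adjusted p = 0.53, edgeR), with 864 genes at an unadjusted p under 0.05. Without the block the 12 separate libraries had 740 such genes. The labels number libraries as experiments without saying what a number shares. Same-numbered samples correlated at -0.01 to 0.22, not all above 0.1. Thrombus 2 correlated best with vein wall 1 (0.41), so the numbers were not taken as pairs. Of 4373 values of named genes under alternatives, 0 reversed with an unadjusted p under 0.05 in either fit, 15 became called, and 144, in 43 genes, changed sign where neither p was under 0.05. The median changed sign in 15 of 30 lists. No filter and leaving out vein wall 3-4 shifted the median of all genes to 0.12 and 0.11. Precision is set by 4 against 3 samples and by the spread between them, a median SD of log2 CPM of 0.78 in thrombus and 0.67 in vein wall.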

Other observations

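Genes that the join leaves out could be compared in set 3 alone, with 2 samples a tissue. Of 588 such genes tested, 0 were called (edgeR). The mitochondrially encoded mt-Co1 of complex IV had 7230 and 8014 CPM in thrombus against 7215 and 10530 in vein wall (log2 fold change -0.22 ± 0.19), mt-Nd1 of complex I 1685 and 1466 against 1594 and 2474 (-0.37 ± 0.23), and mt-Cytb of complex III 3210 and 2887 against 2977 and 3970 (-0.19 ± 0.19). For each, vein wall 2 was close to the thrombus samples and vein wall 3-4 was higher. Of the other mitochondrially encoded genes, mt-Nd4l, mt-Nd2 and mt-Atp8 were above 0, at 0.28, 0.14 and 0.03. Below 0 were mt-Nd3 and mt-Nd6 (both -0.32), mt-Nd4 (-0.28), mt-Co2 (-0.16), mt-Atp6 (-0.10), mt-Co3 (-0.02) and mt-Nd5 (-0.01). Ppp4r3b, a regulatory subunit of protein phosphatase 4, had the smallest p of the 588 genes, with 124 and 188 CPM against 44.5 and 65.5 (1.50 ± 0.44, unadjusted p = 0.00316, adjusted p = 0.845, edgeR).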
